A study of Mus musculus with 2 samples.

Results

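Of the 32287 features measured in mouse leptomeninges, 10 were examined here: the cadherins Cdh1, Cdh2, Cdh4, Cdh5, Cdh11 and Cdh13, and the junction plaque genes Dsp, Jup, Pkp2 and Pkp4. They were chosen by gene symbol as adhesion genes of a layered tissue, and all 10 had at least 1 captured molecule in each library. The study profiled single cells of the thin membranes peeled from the cerebral hemispheres of adult Pdgfra-H2BGFP mice of both sexes aged 3 months, in which a histone-bound green fluorescent protein reports Pdgfra. Droplet libraries R1 and R2, each loaded to recover at most 5000 cells, form 1 group with no treatment or control, so the comparisons run between cell classes within the libraries. The labels do not say whether R1 and R2 came from separate animals or how many animals each held. The p-values rest on how class differences varied between these 2 libraries, pooled over classes, and this spread may be technical.

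Classical cadherins are membrane proteins that bind the same cadherin on a neighbouring cell outside and catenins inside, which tie them to actin. Desmosomes are related junctions in which desmosomal cadherins bind plakoglobin and plakophilins, and desmoplakin links these to intermediate filaments. E-cadherin is best known from epithelia and is used as a marker of the arachnoid barrier, the tight cell sheet that seals the cerebrospinal fluid space from the dura, while VE-cadherin is the cadherin of endothelial adherens junctions.

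The files held 7276 barcodes in R1 and 6743 in R2, with 14586462 and 12359040 unique molecular identifiers (UMIs, each standing for 1 captured RNA molecule). After filters on genes and mitochondrial reads, 2985 cells of R1 (median 1643 UMIs) and 3035 cells of R2 (median 1249 UMIs) were kept. Cells were clustered without the 10 genes, and clusters were named "-like" from marker lists that hold none of them. The 4 fibroblast-like layers were arachnoid barrier-like cells (71 in R1, 58 in R2), dural border-like cells (529, 244), inner arachnoid-like cells (103, 124) and pial and perivascular-like cells (155, 75). R1 and R2 further held 330 and 317 endothelial-like cells. The myeloid classes were macrophage-like (536 and 689 cells) and microglia-like (189 and 99 cells). The inner arachnoid-like name is the weakest, since its marker score of 0.252 lay close to the astrocyte score of 0.241 and none of its 5 markers was among the cluster's 10 leading genes. Levels of markers from the naming lists describe the classes and are no independent check of the names. Dpp4 had 641 and 635 CPM in arachnoid barrier-like cells and at most 108 CPM in the other layers. Slc47a1 had 2175 and 2351 CPM in dural border-like cells and 721 and 879 CPM in arachnoid barrier-like cells. The inner arachnoid markers did not separate their own class: they summed to 3091 and 2590.3 CPM there, 3320.3 and 2278 CPM in dural border-like cells and 2286 and 2433 CPM in pial and perivascular-like cells. Fibroblast-like cells poor in the nuclear RNA Malat1 stayed unnamed and outside the comparisons. The libraries shared 93 barcodes, 74 of them among the cells kept, and the doublet caller marked 3 cells in each library, too few for it to have worked, so doublets remain.

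Levels are given as CPM, the UMIs of a gene in a class and library divided by all UMIs of that class and library and scaled to a common total of 1000000, and are compared between classes for 1 gene at a time. Tests are edgeR quasi-likelihood tests on UMIs summed per class and library, with library as a block and Benjamini-Hochberg adjustment over the 10190 genes that passed the low-count filter. Of the 10 genes, 7 passed that filter, and Cdh4, Dsp and Pkp2 were too low to test. Cdh2 and Cdh13 passed it mainly through UMIs of endothelial-like cells, where they are high, so their calls are descriptions and support nothing. A fold change against several classes is taken against the mean of their logs, and its standard error (SE) comes from the fit to both libraries (n = 2). The fit removes the general difference between libraries and pools the remaining spread over classes. An SE can therefore be smaller than the gap between the 2 single-library fold changes of a gene.

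Cdh1, which encodes E-cadherin (chr8:106603351-106670246 on the plus strand of the mm10 build), had its highest level in arachnoid barrier-like cells. It stood at 713 CPM in R1 and 391 CPM in R2 in those cells. Dural border-like cells followed with 225 and 198 CPM, inner arachnoid-like cells with 70.7 and 99.0 CPM, and pial and perivascular-like cells with 32.8 and 28.0 CPM. The 4 layers therefore formed 4 steps whose library values did not overlap. Endothelial-like cells held 20.9 and 13.2 CPM, macrophage-like cells 20.6 and 19.6 CPM and microglia-like cells 15.5 and 14.98 CPM, and these 3 classes were within or near one another's library values.

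**Figure D1:**
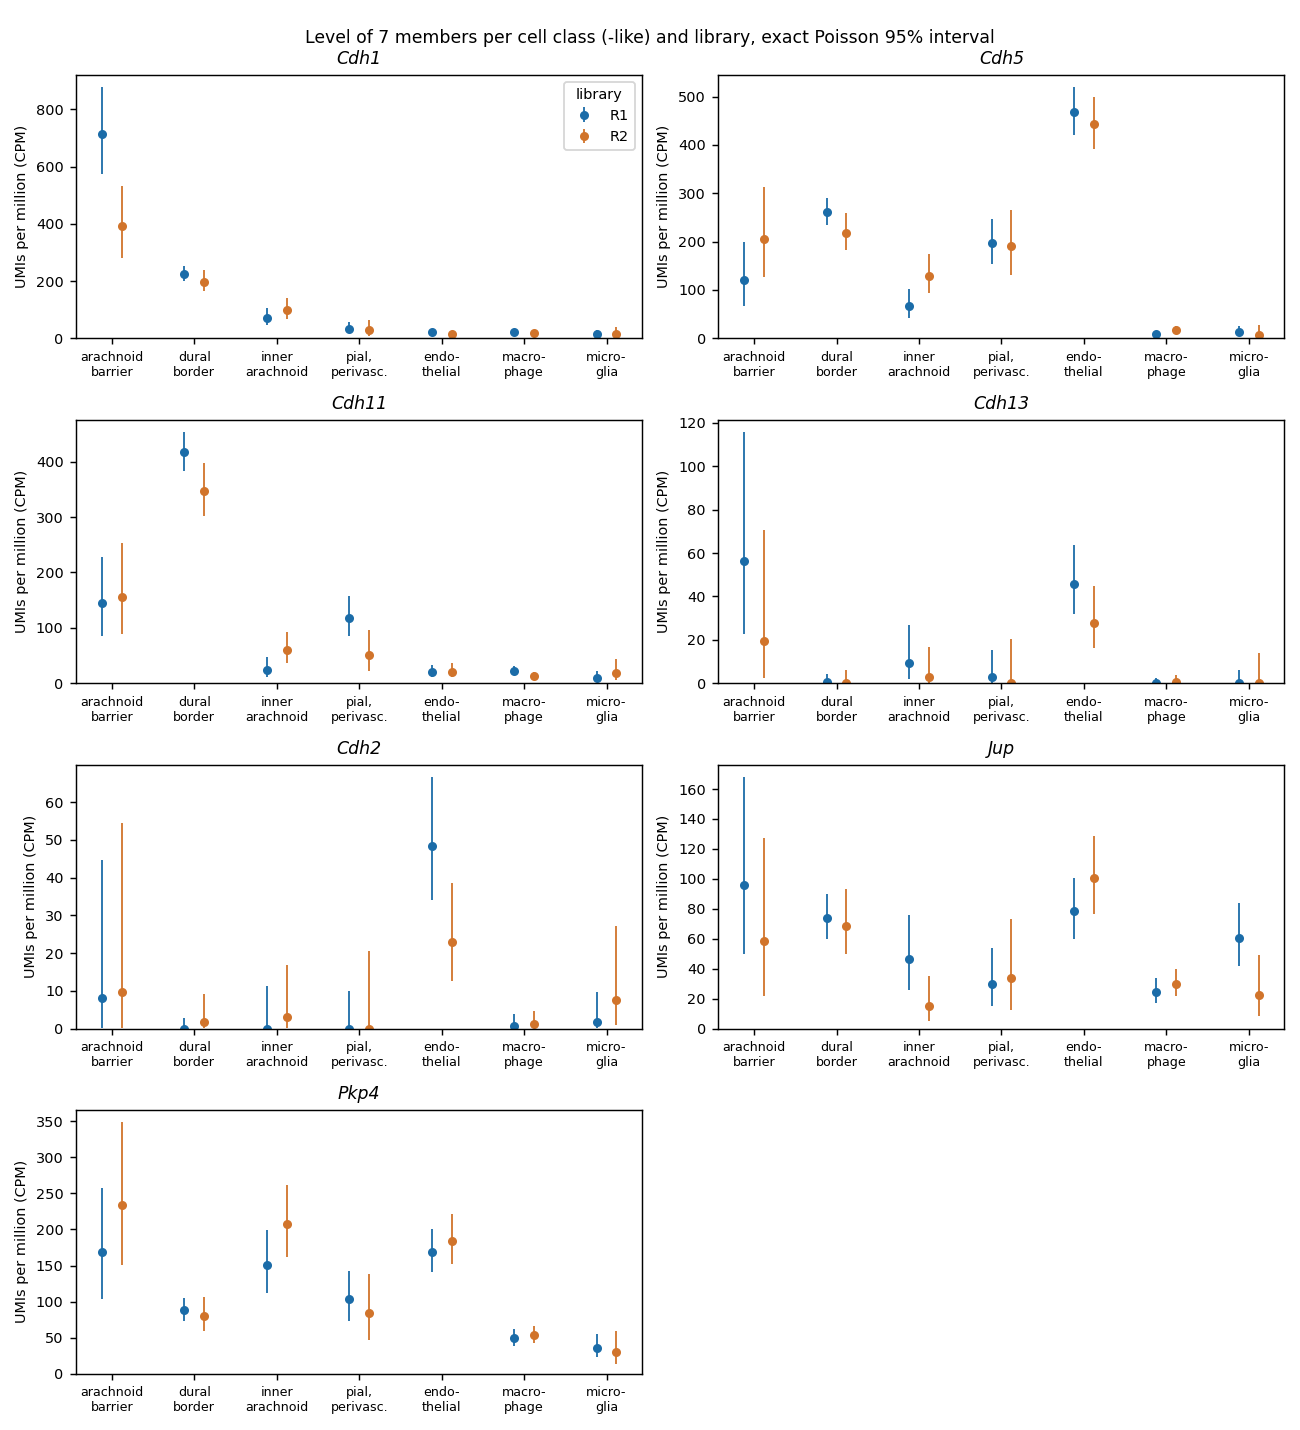
Levels of the 7 tested members in each cell class, in CPM of the class, with 1 point per library and an exact Poisson 95% interval for counting error; each gene has its own axis. Cdh1 stands highest in arachnoid barrier-like cells, Cdh11 in dural border-like cells and Cdh5 in endothelial-like cells, in both libraries.

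The Cdh1 difference between arachnoid barrier-like cells and the other 3 layers was a log2 fold change of 2.58 ± 0.22 (SE) with an adjusted p of 1.29e-21 in edgeR's quasi-likelihood test, and was 2.92 in R1 alone and 1.96 in R2 alone. Of the 7 tested members Cdh1 was higher in that layer and none was lower. Of all genes 4.02% were higher there, 2.79% lower and 6.81% passed in all. Cdh13 was called higher too, from 7 and 2 UMIs, but as a description only. Against dural border-like cells alone, Cdh1 was higher by 1.33 ± 0.20 on the log2 scale (edgeR adjusted p = 1.00e-07), with 1.62 in R1 and 0.85 in R2. Against endothelial-like cells, the other barrier-forming class of the tissue, Cdh1 was higher by 4.76 ± 0.30 (edgeR adjusted p = 3.95e-34). In pial and perivascular-like cells Cdh1 fell by 2.73 ± 0.31 on the log2 scale against the other layers (edgeR adjusted p = 4.82e-14), the 1 member called in that comparison, in which 15.1% of all genes passed and 6.43% were lower.

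Cells with a Cdh1 UMI were counted after each cell was thinned to 1000 UMIs, which leaves out shallower cells. In arachnoid barrier-like cells 28 of 54 (51.9%, exact binomial 95% interval 37.8 to 65.7%) had one in R1 and 12 of 47 (25.5%, 13.9 to 40.4%) in R2. Dural border-like cells reached 17.8% of 483 cells and 15.3% of 222. The background was read as 2.73% of 256 and 1.33% of 225 endothelial-like cells, whose median depth before thinning was 1569 and 1439 UMIs against 1679 and 1601 UMIs in arachnoid barrier-like cells. The endothelial-like class took in a sub-cluster led by fibroblast genes, which held 4 and 5 of the 16 and 8 Cdh1 UMIs of the class, and the share in macrophage-like cells was 2.88% of 382 and 1.66% of 421. The shares in pial and perivascular-like cells, 2.86% and 3.23%, had intervals that took in these background values, so Cdh1 there was not detectable above background by this measure. Such intervals cover counting error only. Thinning left out 17 and 11 arachnoid barrier-like cells, and without it the shares were 56.3% and 39.7%. Both the level and the share of Cdh1 in this layer were higher in R1 than in R2.

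**Figure D2:**
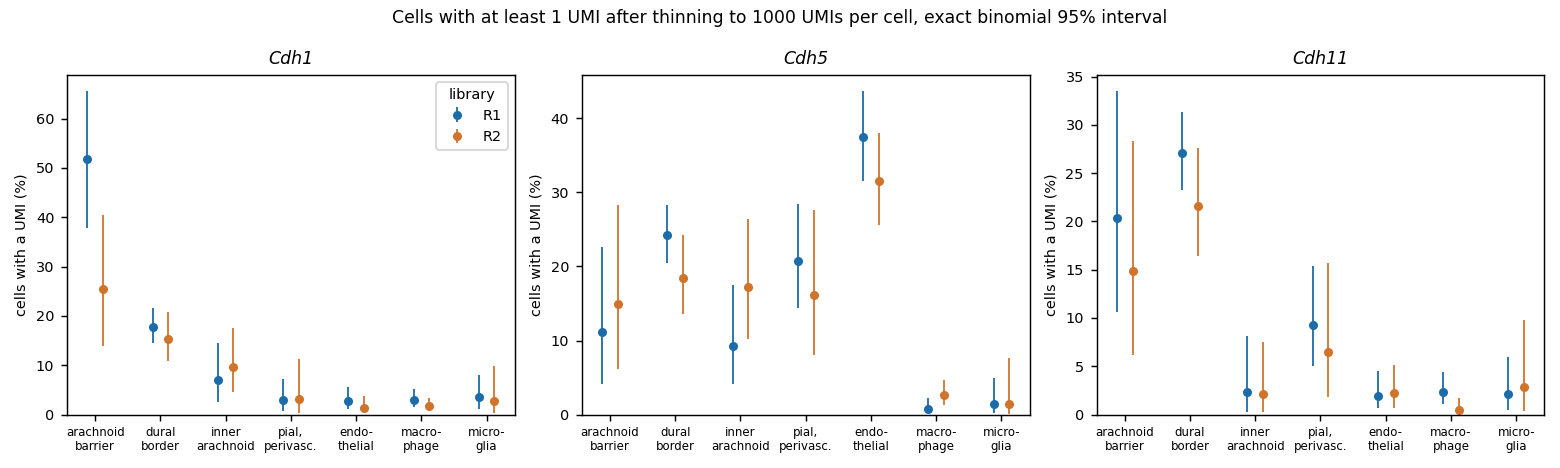
Percentage of cells with at least 1 UMI of Cdh1, Cdh5 or Cdh11 after thinning to 1000 UMIs per cell, by class and library, with exact binomial 95% intervals. Cdh1 reaches 51.9% and 25.5% of arachnoid barrier-like cells, Cdh5 is found in fibroblast-like layers above its macrophage-like share, and Cdh11 is highest in dural border-like cells.

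Cdh11, or cadherin-11 (chr8:102632095-102785642, minus strand), is a cadherin of mesenchymal cells, and its highest level was in dural border-like cells. There it had 417 CPM in R1 and 347 CPM in R2. Arachnoid barrier-like cells held 144 and 156 CPM, pial and perivascular-like cells 117 and 50.3 CPM, and inner arachnoid-like cells 24.6 and 60.0 CPM. The first 2 steps of this order did not overlap between libraries, whereas the pial and perivascular-like and inner arachnoid-like values did. Endothelial-like cells, at 20.9 and 21.4 CPM, lay among the macrophage-like values of 22.0 and 13.7 CPM.

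Against the other layers Cdh11 was higher in dural border-like cells by 2.10 ± 0.17 on the log2 scale, with 2.29 in R1 and 2.03 in R2 (edgeR adjusted p = 1.45e-23). Both sub-clusters that make up this class held it, at 457 and 303 CPM in one and 333 and 390 CPM in the other, so the level did not rest on either, although none of its markers led the second. Of the 7 members tested, Cdh11, Cdh1 and Cdh5 were higher in dural border-like cells, where 10.6% of all genes were, and Pkp4 was lower, where 5.65% of all genes were (16.3% in all). Cdh11 fell by 1.83 ± 0.29 in inner arachnoid-like cells (edgeR adjusted p = 1.25e-07), with -2.61 in R1 alone and -1.03 in R2 alone. Cdh11 and Cdh5 were the 2 members lower and Pkp4 the 1 member higher in inner arachnoid-like cells, in which 3.42% of all genes were lower and 5.08% higher, 8.5% in all.

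Cdh1 and Cdh11 thus led in different layers. Arachnoid barrier-like cells had more Cdh1 than dural border-like cells but less Cdh11, with a log2 fold change of -1.43 ± 0.27 in edgeR's quasi-likelihood test (adjusted p = 1.86e-05), a call that the DESeq2 Wald test did not make (adjusted p = 0.0544). In that comparison 5.09% of all genes passed, 2.43% higher and 2.66% lower. Of the 7 tested members Cdh1 and Pkp4 were higher and Cdh11 lower, and Cdh13 was called higher as a description only. The Cdh1 excess of dural border-like cells over the mean of the other layers was 0.80 ± 0.18 (edgeR adjusted p = 3.37e-04), although the plain mean CPM of the other 3 layers, pulled up by arachnoid barrier-like cells, was 272 in R1 against 225 in dural border-like cells. With finer clusters this fold change was 0.40 with an edgeR adjusted p of 0.110. Those clusters held 149 and 101 arachnoid barrier-like cells, not 71 and 58, and 453 and 214 dural border-like cells, not 529 and 244. One cluster named arachnoid barrier-like there scored 0.395 on that list and 0.346 on the dural border list. The boundary between these 2 layers thus depended on the clustering.

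Among thinned dural border-like cells, Cdh11 was found in 31.4% of the 86 cells with Cdh1 and 26.2% of the 397 without in R1, and in 20.6% of 34 and 21.8% of 188 in R2. A test of this overlap was not made, and the 2 genes occurred in the same cells as well as apart. In arachnoid barrier-like cells Cdh11 was found in 4 of 28 cells with Cdh1 and 7 of 26 without in R1, and in 1 of 12 and 6 of 35 in R2.

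**Figure D3:**
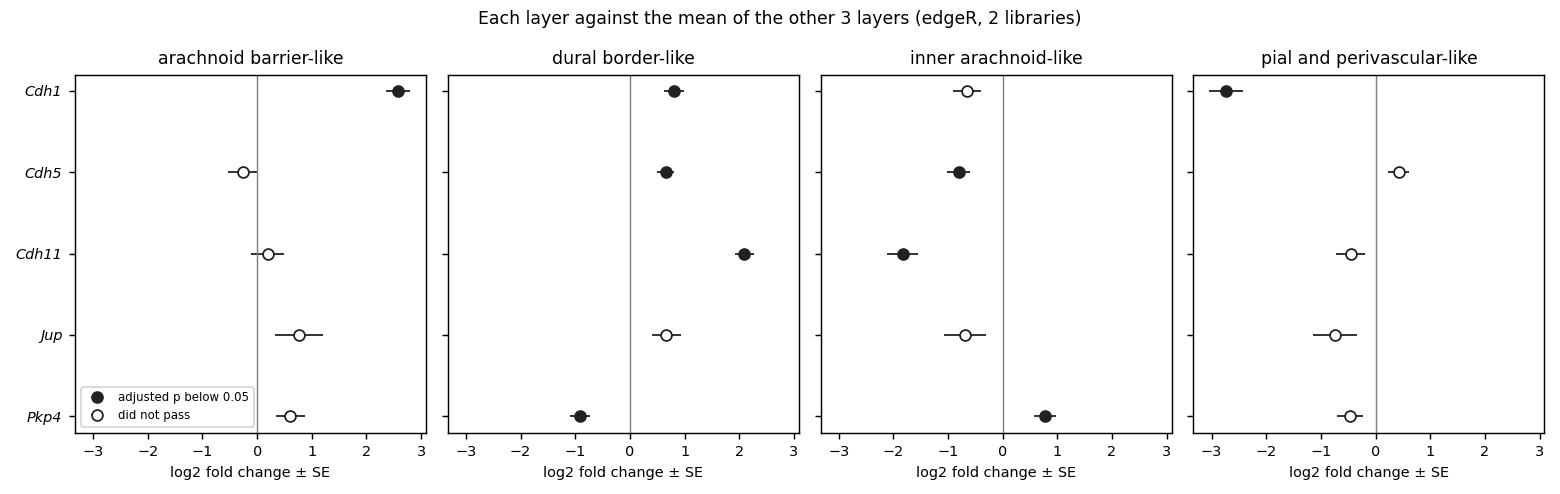
Log2 fold change with its standard error of 5 members in each fibroblast-like layer against the mean of the other 3 layers (edgeR, both libraries); filled points passed an adjusted p of 0.05. Cdh1 stands at 2.58 in arachnoid barrier-like cells and -2.73 in pial and perivascular-like cells, and Cdh11 at 2.10 in dural border-like cells.

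Cdh5, which encodes VE-cadherin (chr8:104101625-104144511, plus strand), was held by all 4 fibroblast-like layers, below its level in endothelial-like cells. Dural border-like cells had 260.4 CPM in R1 and 218 CPM in R2, and pial and perivascular-like cells 197 and 190.1 CPM. The arachnoid barrier-like layer had 120.2 and 205 CPM and inner arachnoid-like cells 67.7 and 129 CPM. Endothelial-like cells had 469 and 443 CPM, and the background was 9.24 and 16.96 CPM in macrophage-like and 12.1 and 7.49 CPM in microglia-like cells. Every layer thus lay above both myeloid classes and below endothelial-like cells, taken as a whole, in both libraries. Within that class a venous-like sub-cluster and a sub-cluster led by mural genes, given below, held less Cdh5 than dural border-like cells. Pial and perivascular-like and arachnoid barrier-like cells overlapped, as did arachnoid barrier-like and inner arachnoid-like cells.

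The mean of the 4 layers was lower than endothelial-like cells by a log2 difference of -1.57 ± 0.13 (edgeR adjusted p = 6.56e-25), and arachnoid barrier-like cells differed from them by -1.77 ± 0.24 (edgeR adjusted p = 1.03e-10). Between layers Cdh5 was higher in dural border-like cells by 0.65 ± 0.15 (edgeR adjusted p = 4.18e-04), but by 1.01 in R1 and 0.27 in R2, and with the DESeq2 Wald test the adjusted p was 0.134. It fell by 0.81 ± 0.22 in inner arachnoid-like cells (edgeR adjusted p = 0.00538), with a log2 fold change of -1.196 in R1 and -0.49 in R2. That call was lost in DESeq2 (adjusted p = 0.0764) and when the unnamed fibroblast-like clusters joined the fit (adjusted p = 0.0729). In arachnoid barrier-like cells the difference from the other layers, -0.26 ± 0.27, did not pass the edgeR test (adjusted p = 0.704), and with finer clusters it was 0.25.

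Endothelial marker genes were read beside Cdh5 in the same layers. Of 9 such markers 8 had UMIs in arachnoid barrier-like, inner arachnoid-like and dural border-like cells of each library, with Emcn alone at 0, and 6 and 4 of 9 had UMIs in pial and perivascular-like cells. Emcn, the sialomucin of venous and capillary endothelium, had 0 UMIs in all 4 layers of both libraries, against 371 and 377 CPM in endothelial-like cells. Pecam1, an endothelial adhesion molecule, and Tek, the angiopoietin receptor, had 0 UMIs in pial and perivascular-like cells of both libraries. The 9 endothelial markers summed to 65.7 and 93.3 CPM in dural border-like cells, 76.5 and 89.5 CPM in pial and perivascular-like cells, 208 and 244 CPM in arachnoid barrier-like cells and 218 and 234 CPM in inner arachnoid-like cells. They summed to 303 and 341 CPM in macrophage-like cells, which held little Cdh5, and to 18887 and 18998 CPM in endothelial-like cells. Dural border-like and pial and perivascular-like cells, the 2 layers with most Cdh5 by mean level, had the lowest endothelial marker sums of the 4 layers. The source of the Cdh5 UMIs in the layers was not tested.

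**Figure D4:**
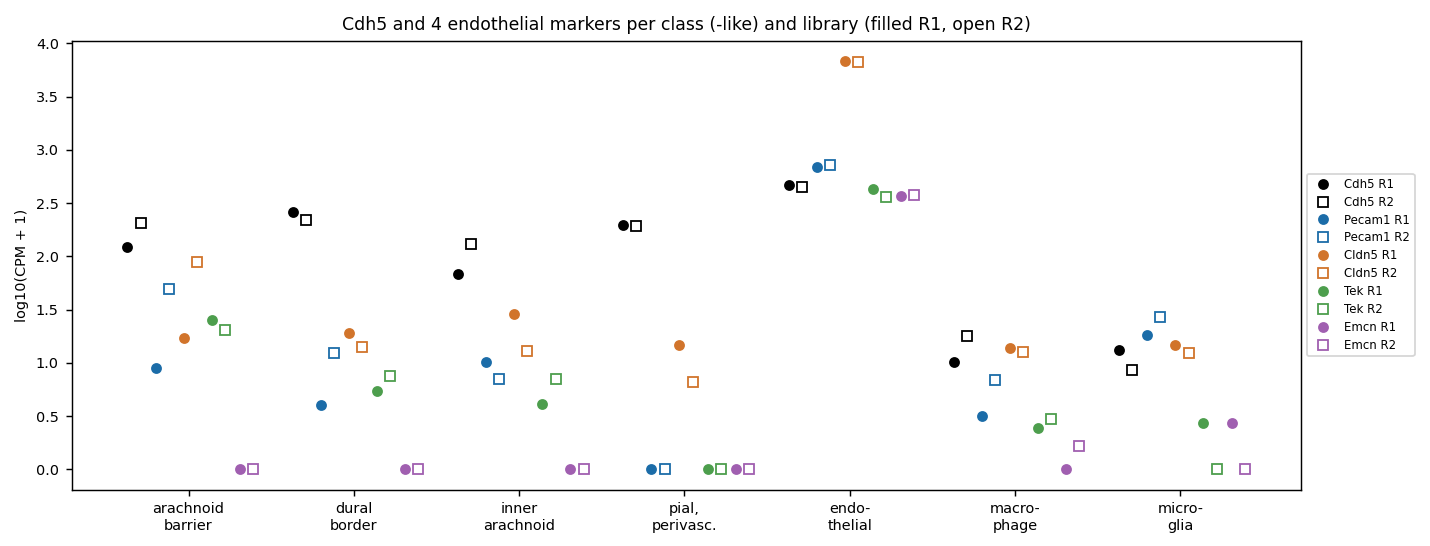
Log10 of CPM + 1 for Cdh5 and 4 endothelial markers in each class, filled for R1 and open for R2. In pial and perivascular-like cells Cdh5 stands at 197 and 190.1 CPM while Pecam1, Tek and Emcn have 0 UMIs in both libraries. Other endothelial markers of the naming list had UMIs in that layer, as given in the text.

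After thinning to 1000 UMIs, a Cdh5 UMI was found in 24.2% of 483 dural border-like cells in R1 (exact binomial 95% interval 20.5 to 28.3%) and in 18.5% of 222 in R2 (13.6 to 24.2%). Pial and perivascular-like cells reached 20.7% of 140 (14.3 to 28.4%) and 16.1% of 62 (8.02 to 27.7%), and endothelial-like cells 37.5% of 256 and 31.6% of 225. Of the cells that give the Cdh5 background, 28.2% and 23.9% of macrophage-like and 43.9% and 41.4% of microglia-like cells had at least 1% Malat1, against 94.2 to 99.1% in the 4 layers, and the part of this difference in the Cdh5 levels was not tested. The Cdh5 share in macrophage-like cells was 0.785% of 382 and 2.61% of 421, at median depths of 1454 and 1203 UMIs against 2415 and 2217 UMIs in dural border-like cells before thinning. Of the dural border-like cells with Cdh5, 1 of 117 in R1 and 1 of 41 in R2 also had Pecam1, and of those without Cdh5, 1 of 366 and 3 of 181 did. None of the 29 and 10 pial and perivascular-like cells with Cdh5 had Pecam1, whereas 55 of 96 and 41 of 71 endothelial-like cells with Cdh5 did. Cdh5 overlaps the counted antisense gene Gm29682, so the strand setting of the counting, which is not given in the sources used here, bears on its total.

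The other 3 cadherins, N-cadherin (Cdh2), T-cadherin (Cdh13) and R-cadherin (Cdh4), were read from few UMIs, and Cdh2 and Cdh13 also overlap counted antisense genes. Cdh2 (chr18:16588877-16809246, minus strand), the cadherin of neurons, mural cells and endothelium, had 48.3 and 23.0 CPM in endothelial-like cells, from 37 and 14 UMIs. The 4 layers summed held 1 UMI in R1 and 3 in R2, a ratio of 104 (exact 95% interval 17.6 to 4222) in R1 and 9.41 (2.63 to 51.1) in R2 for endothelial-like cells over the layers. Both counting intervals lay above 1. Arachnoid barrier-like cells had 1 UMI of Cdh2 in each library.

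Cdh13 (chr8:118283733-119324921, plus strand), a cadherin held in the membrane by a lipid anchor and known from vascular endothelium, was read mainly in arachnoid barrier-like and endothelial-like cells. Arachnoid barrier-like cells held 56.1 and 19.5 CPM, from only 7 and 2 UMIs. Endothelial-like cells held 45.7 and 28.0 CPM, from 35 and 17 UMIs. Inner arachnoid-like cells had 9.23 and 3.00 CPM, and dural border-like cells had 1 UMI in R1 and 0 in R2. The arachnoid barrier-like level over the other layers summed was a ratio of 22.8 (exact 95% interval 6.23 to 91.1) in R1 and 21.9 (1.14 to 1294) in R2. Its 2 UMIs in R2 make that level imprecise, and Cdh13 in arachnoid barrier-like and endothelial-like cells could not be ranked.

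Cdh4 (chr2:179442431-179899373, plus strand), a cadherin of the retina and nervous system, had 27 UMIs in R1 and 12 in R2 over all cells kept. Arachnoid barrier-like cells had 0 UMIs in R1, where 3 UMIs would be 24.0 CPM, and 3 UMIs or 29.3 CPM in R2. Pial and perivascular-like cells had 4 and 1 UMIs, or 10.9 and 5.59 CPM. No order of the classes could be read for Cdh4 at this depth.

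Of the plaque genes, Jup (plakoglobin, chr11:100368958-100397763, minus strand) and Pkp4 (plakophilin-4, chr2:59160850-59355208, plus strand), both of which also occur at adherens junctions, were found in every class. Jup had 96.2 and 58.6 CPM in arachnoid barrier-like cells, 73.9 and 68.8 CPM in dural border-like cells and 78.3 and 100.4 CPM in endothelial-like cells. Arachnoid barrier-like cells overlapped both other classes, while dural border-like cells lay below endothelial-like cells in both libraries. Inner arachnoid-like cells had 46.1 and 15.01 CPM, pial and perivascular-like cells 30.04 and 33.6 CPM, macrophage-like cells 24.2 and 30.01 CPM, and microglia-like cells 60.4 and 22.5 CPM. The mean of the layers was below endothelial-like cells (log2 -0.99 ± 0.23, edgeR adjusted p = 1.51e-04), and none of the 4 layers differed from the other 3 past the threshold, with fold changes between -0.74 and 0.77.

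Pkp4 separated the layers in another way. It had 168 and 235 CPM in arachnoid barrier-like cells, 151 and 207 CPM in inner arachnoid-like cells, and 168 and 184 CPM in endothelial-like cells, which overlapped. Pial and perivascular-like cells had 104 and 83.9 CPM and dural border-like cells 88.0 and 80.2 CPM, lower than all 3 in both libraries. Pkp4 fell by 0.91 ± 0.19 in dural border-like cells against the other layers (edgeR adjusted p = 3.30e-05) and was higher by 0.77 ± 0.20 in inner arachnoid-like cells (edgeR adjusted p = 0.00318). It was higher by 1.14 ± 0.29 in arachnoid barrier-like than in dural border-like cells (edgeR adjusted p = 0.00382). Dural border-like cells, highest in Cdh11, were thus the layer lowest in Pkp4 by mean level.

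Dsp (desmoplakin, chr13:38151294-38198577, plus strand) and Pkp2 (plakophilin-2, chr16:16213318-16272712, plus strand), the members specific to desmosomes, had few UMIs. Over all cells kept, Dsp had 7 UMIs in R1 and 11 in R2, and Pkp2 had 2 and 4. In arachnoid barrier-like cells both had 0 UMIs in each library, which allows up to 24.0 CPM in R1 and 29.3 CPM in R2. In dural border-like cells Pkp2 had 0 UMIs, which allows up to 2.24 and 4.91 CPM, and Dsp had 4 and 0 UMIs. Endothelial-like cells held 1 and 4 UMIs of Dsp and 2 and 1 of Pkp2. A level in arachnoid barrier-like cells below those limits was not detectable at this depth.

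Between the mean of the 4 layers and endothelial-like cells, Cdh1 and Cdh11 were higher in the layers, where 21.1% of all genes were. Cdh5, Jup and Pkp4 were lower, where 27.9% of all genes were. Cdh2 and Cdh13 were called lower too, but passed the low-count filter mainly through endothelial-like cells, so these calls are descriptions. As 49% of all genes passed in this comparison, such differences were common. Cdh1 was higher by 2.82 ± 0.29 and Cdh11 by 2.43 ± 0.28 on the log2 scale, and Pkp4 was lower with -0.53 ± 0.16 (edgeR adjusted p = 4.55e-17, 1.05e-14 and 0.00272). Arachnoid barrier-like cells alone exceeded endothelial-like cells in Cdh1 and Cdh11 and were lower in Cdh5, 3 of the 7 tested members, in a comparison in which 31.4% of all genes passed, 13.7% higher and 17.7% lower. Cdh11 was higher there by 2.57 ± 0.41 (edgeR adjusted p = 3.32e-08), and Cdh2, at -2.25 ± 0.99, did not pass (edgeR adjusted p = 0.0701). Against macrophage-like and microglia-like cells, endothelial-like cells were higher in Cdh5, Jup and Pkp4, where 21.9% of all genes were higher, 21.6% lower and 43.5% passed in all. Cdh2 and Cdh13 were called higher there too, again as descriptions only. Cdh5 was higher by 5.004 ± 0.19 (edgeR adjusted p = 2.46e-61) and Pkp4 by 1.82 ± 0.19 (edgeR adjusted p = 8.46e-17). Cdh1 and Cdh11 did not pass there.

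Endothelial-like cells were clustered again, and 64 and 74 cells were named arterial-like and 94 and 105 venous-like from their marker lists. Cdh13 had 245 and 142 CPM in arterial-like cells, from 20 and 13 UMIs, against 4.30 and 0 CPM in venous-like cells, from 1 and 0 UMIs. The ratio was 57.0 (exact 95% interval 9.12 to 2364) in R1 and at least 12.4 in R2, with 0 taken as 3 UMIs per library. Cdh13 passed the low-count filter only through arterial-like cells, where it is high, so its call in a fit of the 2 subclasses with 1 residual degree of freedom is a description. Cdh2, with 0 and 1 UMIs in arterial-like and 11 and 7 in venous-like cells, did not pass that filter. Of the members 4 were tested, where 15.9% of the 3394 genes tested were higher and 32.7% passed in all. Jup, with 85.8 and 120.4 CPM against 38.7 and 57.6 CPM in venous-like cells, did not pass (edgeR adjusted p = 0.0778). Cdh5, at 466 and 471 CPM against 404 and 415 CPM, and Pkp4, at 208 and 175 CPM against 181 and 199.7 CPM, differed by less than their errors.

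The 2 venous-like sub-clusters had library values of Cdh5 and Pkp4 that did not overlap, a difference that was not tested. The one with Lcn2, Ackr1 and Sele among its leading genes (29 cells in each library) held 199 and 206 CPM of Cdh5 and 108 and 119 CPM of Pkp4. The other (65 and 76 cells) held 626 and 611 CPM of Cdh5 and 259 and 276 CPM of Pkp4. Arterial-like cells thus lay between the 2 venous-like sub-clusters for Cdh5. A sub-cluster that stayed unnamed (98 and 41 cells) held 622 and 758 CPM of Cdh5. The sub-cluster led by mural genes (36 and 35 cells) held 179 and 112 CPM of Cdh5 and 89.6 and 49.6 CPM of Cdh13. The one led by fibroblast genes such as Slc47a1 (29 and 60 cells) held 100.2 and 65.0 CPM of Cdh1, 250.5 and 481 CPM of Cdh5 and 200.4 and 65.0 CPM of Cdh11, the highest Cdh11 level of the endothelial-like sub-clusters. The one led by microglial genes (9 and 2 cells) held 544 and 333 CPM of Cdh5. Its 2 cells of R2 had 6003 UMIs over all genes, so the R2 value rests on too few Cdh5 UMIs to be read as a level.

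**Figure D5:**
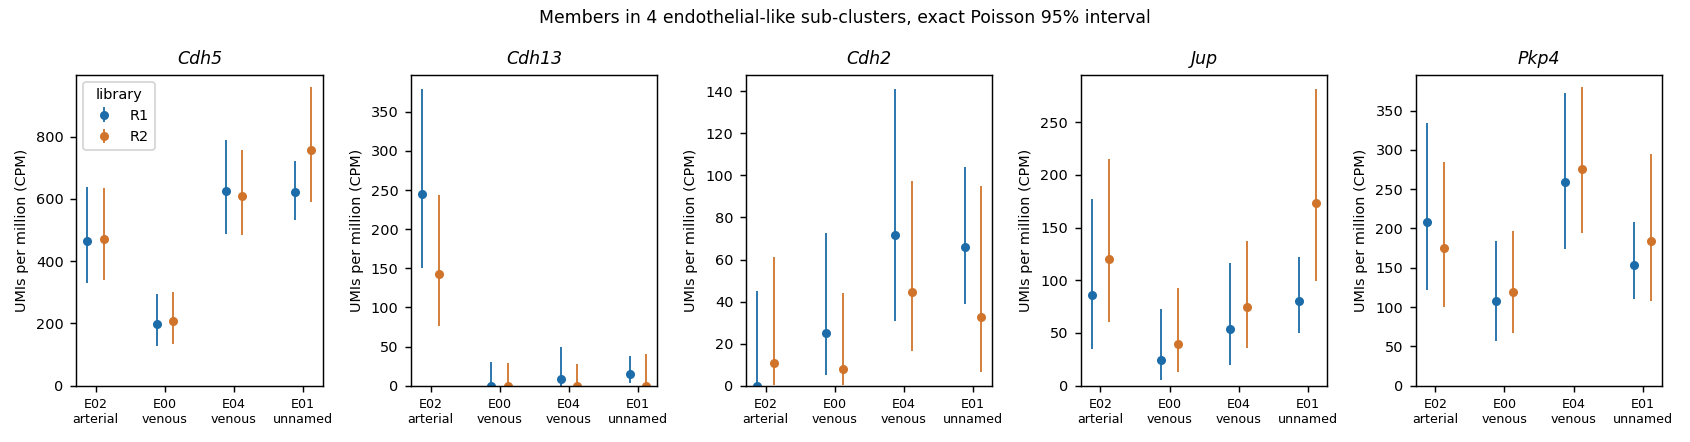
CPM of 5 members in 4 endothelial-like sub-clusters (arterial-like, 2 venous-like and 1 unnamed), 1 point per library with exact Poisson 95% intervals. Cdh13 stands at 245 and 142 CPM in the arterial-like sub-cluster, and Cdh5 at 199 and 206 CPM in one venous-like sub-cluster and 626 and 611 CPM in the other.

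The wider junction families were read from lists of related genes, chosen with earlier results of these data known. Of 14 other desmosome genes, 2 passed the low-count filter. Perp, a membrane protein of desmosomes in skin, was higher in dural border-like cells (394 and 489.6 CPM against 108 and 170.1 CPM as the mean of the other layers, log2 2.11 ± 0.16, edgeR adjusted p = 5.62e-27) and in arachnoid barrier-like cells (249 and 342 CPM against 157 and 219 CPM, log2 1.22 ± 0.25, edgeR adjusted p = 1.22e-04). Perp fell by 2.59 ± 0.30 in pial and perivascular-like cells, with 30.04 and 39.1 CPM against 229 and 320.2 CPM (edgeR adjusted p = 1.10e-13). Perp and Cdh1 were therefore both lowest of the layers in pial and perivascular-like cells, while Perp, unlike Cdh1, was higher in dural border-like than in arachnoid barrier-like cells (log2 difference of arachnoid barrier-like cells -0.67 ± 0.21, edgeR adjusted p = 0.0354).

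Of 14 regulators known to act on Cdh1, 4 could be tested, and 3 were higher in pial and perivascular-like cells, the layer lowest in Cdh1. These were the E-box repressors Snai1 (65.5 and 100.7 CPM against 26.3 and 24.9 CPM in the other layers, log2 1.85 ± 0.39), Zeb2 (145 and 100.7 CPM against 47.6 and 49.2 CPM, log2 1.63 ± 0.26) and Zeb1 (115 and 95.1 CPM against 46.8 and 55.1 CPM, log2 1.23 ± 0.30). Their edgeR adjusted p-values were 8.62e-05, 6.81e-08 and 8.35e-04. The 4 genes had a median log2 fold change of 1.43 in this layer, where that of all genes was 0.02 and 8.65% of all genes were higher. In arachnoid barrier-like cells none of the 4 passed against the other layers, where 6.81% of all genes did, too few genes to read as a difference. Against endothelial-like cells, Twist1, the tested regulator not named above, was higher there, as Cdh1 was. It had 136 and 97.7 CPM against 18.3 and 11.5 CPM (log2 2.70 ± 0.46, edgeR adjusted p = 2.32e-07). Zeb1 was lower in that comparison (log2 -1.62 ± 0.49, edgeR adjusted p = 0.00552). An effect of these regulators on Cdh1 was not tested.

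Among 40 other cadherins and protocadherins 11 were tested. In arachnoid barrier-like cells 5 were higher and 2 lower than in the other layers, where 4.02% of all genes were higher and 2.79% lower, among them Pcdh19 (96.2 and 39.1 CPM against 5.17 and 5.59 CPM, log2 3.68 ± 0.64, edgeR adjusted p = 3.20e-06) and Fat4, a giant cadherin of planar polarity (32.1 and 9.77 CPM against 105 and 84.8 CPM, log2 -2.24 ± 0.53, edgeR adjusted p = 0.00135). In dural border-like cells 3 were higher and 1 lower, where 10.6% of all genes were higher and 5.65% lower, and Pcdh7 had 475 and 611 CPM against 95.8 and 122 CPM in the other layers (log2 2.91 ± 0.16, edgeR adjusted p = 5.16e-39). In pial and perivascular-like cells 3 were higher and 3 lower, where 8.65% of all genes were higher and 6.43% lower, and Pcdh7 had 16.4 and 11.2 CPM against 249 and 322 CPM (log2 -3.73 ± 0.36, edgeR adjusted p = 2.68e-18). Their median log2 fold change was 0.70 in arachnoid barrier-like cells and 0.41 in dural border-like cells, where that of all genes was -0.06 and 0.09. None of the 11 passed in inner arachnoid-like cells, where 8.5% of all genes did, too few genes to read as a difference.

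Of 20 catenins and plaque genes 14 were tested. In arachnoid barrier-like cells 1 rose, where 4.02% of all genes did and 6.81% passed in all. In dural border-like cells 3 rose, where 10.6% did and 16.3% passed in all. In inner arachnoid-like cells 1 fell, where 3.42% did and 8.5% passed in all. In pial and perivascular-like cells 1 rose and 1 fell, where 8.65% rose, 6.43% fell and 15.1% passed in all. With so few genes, these counts were not read as a difference from the shares of all genes. Their median log2 fold change lay between -0.11 and 0.24 in these 4 comparisons. The nectin Nectin3, which starts adherens junctions, had 112 and 117 CPM in arachnoid barrier-like cells against 37.8 and 38.1 CPM (log2 1.52 ± 0.40, edgeR adjusted p = 0.00489), and Vcl, the actin linker vinculin, had 191 and 160.5 CPM in dural border-like cells against 89.3 and 51.9 CPM (log2 1.18 ± 0.20, edgeR adjusted p = 6.55e-07). The 8 endothelial junction partners were listed as endothelial genes, so their lower level in the layers was largely fixed by that choice. All 8 were lower in the mean of the layers than in endothelial-like cells. Their median log2 fold change was -6.51 against -0.03 for all genes, of which 27.9% were lower and 49% passed. Esam, an adhesion molecule of endothelial tight junctions, had 4.95 and 0.409 CPM in the layers against 881 and 919.9 CPM in endothelial-like cells (log2 -8.34 ± 0.21, edgeR adjusted p = 1.63e-88). The difference of Cdh5 in the same comparison was -1.57, with a layer mean of 161 and 186 CPM. Cdh5 was not alone in this, as the listed partner Cgnl1 was also held by the layers. Cgnl1 had 183 and 106 CPM in pial and perivascular-like cells and 82.7 and 85.5 CPM as the mean of the other layers.

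The genes most like each member over the 14 class by library profiles were ranked by Pearson r of log2(CPM + 10), a description in which profiles of 1 library share its depth. For Cdh1 they were Cldn11 (r = 0.98), a tight junction claudin that is also a marker used to name the arachnoid barrier-like class, Ahnak2 (0.98) and Thsd4 (0.98). For Cdh5 they were A4galt (0.98), the receptor gene Ephb4 (0.97) and the spectrin gene Sptbn1 (0.96), and for Cdh11 they were the collagen gene Col6a2 (0.95), Mmp16 (0.95) and Eif4g3 (0.95). Pkp4 was most like Mcc (0.95), Inf2 (0.94) and Usp53 (0.93), and Jup most like 2900026A02Rik (0.89), Kin (0.89) and Creb1 (0.87).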

How the data were processed

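Leptomeningeal cells of 2 droplet libraries were analysed from the deposited filtered matrices, which hold UMI counts per gene and barcode. Per the submitters' processing notes and the file headers, the authors made these counts with Cell Ranger 4.0.0 on the mm10 build. The strand setting and the annotation are not given in the sources used here, and coordinates are those of GENCODE for the same build. The members and gene lists were chosen with earlier results of these data known.

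Barcodes with under 400 genes or over 10% mitochondrial UMIs were dropped. Doublets called by Scrublet in scanpy 1.11.5 at an expected rate of 0.05 were removed (0.1004% and 0.0987% of cells). Cells were clustered (Leiden, 2000 variable genes without the members, 30 components, 15 neighbours, resolutions 1.0 and 0.8) and clusters named from marker lists. Counts were summed per class and library for classes of at least 50 cells in each library. Mural-like cells (48 and 51) missed this minimum, so endothelial-like cells were set against macrophage-like and microglia-like cells alone. The sums were tested with edgeR 4.0.16 (R 4.3.3; TMM, filterByExpr, quasi-likelihood) with library as a block, 6 residual degrees of freedom and an adjusted p of 0.05. The scripts were tested on simulated data. Pairing follows from the design, since classes of 1 library come from 1 suspension: class deviations in the same library correlated with a median r of 0.14 (0.0233 to 0.269 over 21 pairs of classes). Values of a single library used a prior count of 2 and have no test. Other genes named were up to 3 per list and comparison with the largest fold change among those past the threshold, moved the same way in both libraries, and reaching 50 CPM in the higher class. Alternatives covered normalization, DESeq2 1.42.0, filters, the block, cell quality, clustering and thinning.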

Additional observations from a re-analysis of the deposited data

Results flagged for a closer look

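Cdh2 reached 52.2 CPM in R1 (5 UMIs) and 67.0 CPM in R2 (9 UMIs) in a small unnamed cluster that no comparison uses, led by astrocyte and neuron genes such as Meg3, Gria2 and Bcan (34 and 48 cells). The highest level of Cdh2 among the classes compared was 48.3 CPM, in endothelial-like cells of R1. It was picked out because it is a signal outside the comparisons, and its cause was not tested.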

How the results depend on the processing

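Of 592 fold changes of members recomputed under alternatives with a test, 558 kept their direction and side of the threshold, 5 lost the call, 17 gained one and 12 changed sign. Among 120 values of a single library, only those of called differences could go against a call, and 0 did. The calls were made from the same 2 libraries, so this is no independent check. Uncalled differences could disagree between libraries, such as Cdh11 in pial and perivascular-like cells (0.079 in R1 and -1.37 in R2). The 12 changes of sign were in differences that did not pass under either setting. With finer clusters these were Cdh2 in inner arachnoid-like (-0.33) and pial and perivascular-like cells (1.09), Cdh5 in arachnoid barrier-like cells (0.25) and Jup in inner arachnoid-like cells (0.21). With at least 800 genes per cell they were Cdh1 in inner arachnoid-like cells (0.076) and in endothelial-like against myeloid cells (0.23). In cells with at least 1% Malat1 this last difference was 0.76, and Pkp4 in arterial-like cells was 0.050. Cdh11 in endothelial-like against myeloid cells was -0.11 with mural-like cells added and -0.25 without sub-clusters led by other cell types' genes, both chosen after seeing the data. With no filter on low counts, Cdh5 in arterial-like cells was -0.079 and Jup in arachnoid barrier-like against dural border-like cells -0.038.

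Counts of genes past the threshold moved more. DESeq2 gave 288 genes, not 519, for arachnoid barrier-like against dural border-like cells, 566, not 866, for inner arachnoid-like cells and 229, not 1111, for arterial-like cells. Finer clusters gave 1156 genes, not 694, for arachnoid barrier-like cells and 1487 for inner arachnoid-like cells. Joining the unnamed clusters gave 1581, 2093 and, for dural border-like cells, 2755 genes, not 1657. Adding mural-like cells gave 2694 genes, not 4432, for endothelial-like against myeloid cells. Without the replicate block, 414 genes passed for arachnoid barrier-like against dural border-like cells, and the pairing by library changed no call of a member. By means over cells, arachnoid barrier-like cells ranked 2 of 7 classes for Cdh13 and 3 for Pkp4. Thinned to 500 UMIs, the shares of cells with a UMI were 22.5% for Cdh1 in arachnoid barrier-like cells of R1, 20.3% and 19.6% for Cdh5 in endothelial-like cells, and 16.3% and 13.9% for Cdh11 in dural border-like cells. Unthinned, the last 2 pairs were 52.4% and 45.4%, and 51.4% and 45.5%. The cause of these moves was not tested. The limits of 5% mitochondrial UMIs and 800 genes left too few arachnoid barrier-like cells, and 1 library alone allows no count of genes.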

Other observations

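The unnamed fibroblast-like clusters poor in Malat1 and the mural-like cells took no part in the comparisons, and their levels of the members are given here as values. The larger unnamed cluster of 329 cells in R1 and 611 in R2, led by Ecrg4, Penk and Igfbp5, held 259 and 199 CPM of Cdh1, 289 and 164 CPM of Cdh11 and 187 and 139 CPM of Cdh5, and 6.69% and 6.38% of its cells had at least 1% Malat1. The smaller one of 191 and 415 cells, led by Ppp1r1a and Ptgds, held 96.2 and 122 CPM of Cdh1, 40.5 and 57.0 CPM of Cdh11, 40.5 and 70.3 CPM of Cdh5 and 192 and 144 CPM of Pkp4. Mural-like cells (48 and 51) held 7 and 1 UMIs of Cdh2.

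A cluster led by neuronal genes such as Nrgn and Camk2a (246 and 84 cells), of which 7.72% and 7.14% had at least 1% Malat1, held 42.9 and 25.2 CPM of Cdh2 from 30 and 5 UMIs, with 4.29 and 5.04 CPM of Cdh1. The barcodes left out by the filters on genes and mitochondrial reads (4291 in R1 and 3708 in R2) held 89.3 and 80.1 CPM of Cdh1, 56.3 and 40.2 CPM of Cdh5 and 70.6 and 55.5 CPM of Cdh11.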
